A study of Meleagris gallopavo with 12 samples.

Results

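Transcript levels in the premammillary nucleus of the hypothalamus were compared between long-day photorefractory (LDPR) and short-day photosensitive (SDPS) turkey hens, 8 samples of 12 in the series. All were adult female Meleagris gallopavo, and tissue of 6 hens was pooled for each sample, with 4 pools a group, taken as the samples titled long day photorefractory and short day photosensitive. LDPR hens had been on long days through a full reproductive cycle and moult, with the hours of light not given in the sources used here. SDPS hens were on 6 h light and 18 h dark. The other 4 pools came from long-day photosensitive (LDPS) hens, which had spent 10 days on 16 h light and 8 h dark. LDPR and SDPS hens thus differed in day length and in reproductive history together, and the effects of these cannot be told apart in this comparison. Pooling hides the spread between hens, so every p-value below measures the spread between pools and arrays.

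The premammillary nucleus holds neurons that make both dopamine and melatonin, and turkey hens are thought to use it to tell day length. In photosensitive hens a long day switches on the release of gonadotropin-releasing hormone and then egg laying. After months of long days hens become photorefractory: the reproductive system regresses while the light is unchanged, and short days are needed before the birds respond again. Thyroid hormone and the circadian clock of the basal hypothalamus take part in this switch in birds. Photorefractory hens and photosensitive hens on short days are both out of lay, but only the photosensitive ones can respond to a longer day.

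Each array held 2 pools of different groups, labelled with different dyes, over chicken oligonucleotide probes. LDPR pool 1 shared an array with SDPS pool 3 and LDPR pool 2 with SDPS pool 4, with the dyes exchanged between these arrays, and they are called the direct arrays below. The other 4 arrays joined LDPR to LDPS and LDPS to SDPS, and the sum of those differences, the path through LDPS, is an estimate of the same contrast from other LDPR and SDPS pools. The limma estimate given as log2 fold change, LDPR over SDPS, combined all 6 arrays with a dye term. LDPR pool 2 stood apart: 79.3% of its probes lay above the empty spots, against 91.6% to 96.6% in the other 11 channels. Its array also had the wider spread of log2 ratios, with an SD of 0.43 against 0.28 on the array of LDPR pool 1. Turned to LDPR over SDPS, the ratios of the direct arrays correlated at -0.40 over 17344 probes, which share their libraries and dyes, and 36.3% of probes had the same sign on both. With each probe's dye term removed, a term estimated from the same 6 arrays, they correlated at 0.41. Removing a shared term from arrays of opposite dye orientation raises their correlation by itself, so no agreement is read from 0.41. The same removal gave 0.47 for the arrays of LDPR and LDPS, and -0.00 for those of LDPS and SDPS. The values given below for a direct array still hold the dye effect, which enters the pair with opposite signs and cancels in their mean. The direction of each array follows the dyes named in the labels. Many results are therefore given both with all arrays and without the array of LDPR pool 2. TH, the dopamine-making enzyme that marks this nucleus, was above the empty spots in all 8 pools, as was the photopigment gene OPN4. TPH1, its marker on the melatonin side, was not analysed here.

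By limma 0 of 18012 probes passed an adjusted p of 0.05, and the smallest adjusted p was 0.286, for TNNI1. At an unadjusted p under 0.05 there were 1686 probes (9.36%), with 626 higher in LDPR (3.48%) and 1060 lower (5.88%). Chance gives 901, the same fit with no dye term gave 614, and fits with 1 array left out gave 1023 to 2870. The higher share of these was 37.1%, and 49.3% with the authors' value table. Among 5195 named genes, each read from its brightest probe, 404 had an unadjusted p under 0.05 (7.78%), 197 of them higher (3.79%) and 207 lower (3.98%), and the median log2 fold change was 0.00. Without the array of LDPR pool 2, 99 were higher (1.91%) and 133 lower (2.56%) at that p. These shares are the background for every list count below, 3.79% higher and 3.98% lower with all arrays. Differences were small: the percentiles 1 and 99 of named genes lay at -0.41 and 0.39, and 37 genes went beyond 0.5 in either direction. The direct arrays and the path through LDPS had the same sign for 56.1% of 16748 probes, with a correlation of 0.17. Nothing below is therefore a called change in this fit, and values are given as measured differences. In pooled tissue, fewer cells of a type and less RNA per cell cannot be told apart.

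At an unadjusted p under 0.01 there were 87 of 5195 named genes, and 425 of 18012 probes (2.36%). Of those genes 69, with 38 higher and 31 lower, had both direct arrays and the path in the direction of the fit. They also lay above the empty spots in at least 1 pool of each group. The 12 highest were METTL8 (0.79), TNNI1 (0.73), PHF20L1 (0.55), HSPA5 (0.54), HSP90B1 (0.53), ROCK2 (0.53), TGFBI (0.53), RSPO3 (0.53), TNFRSF18 (0.50), PMP2 (0.48), BCAR3 (0.48) and MSH6 (0.47), as log2 fold changes with SEs from 0.10 to 0.14. Their agreement of sign was part of how they were chosen.

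METTL8, a methyltransferase of mitochondrial tRNA, had levels of 9.19, 9.37, 9.69 and 9.44 in LDPR pools 1 to 4, against 8.59, 8.62, 8.65 and 8.20 in SDPS pools 1 to 4 (normalised log2 intensity). All 4 LDPR pools lay above all 4 SDPS pools. It averaged 9.42 ± 0.21 in LDPR and 8.51 ± 0.21 in SDPS (SD, n = 4 each). The log2 fold change was 0.79 (SE 0.13, 1.73-fold, limma adjusted p = 0.355), with direct arrays at 0.54 and 1.17 and the path at 0.65. LDPS pools ran from 8.56 to 9.35, with pool 3 the highest. With 1 array left out its estimate ran from 0.64 to 0.90, and it passed when the array shared by LDPS pool 2 and SDPS pool 2 was left out (limma adjusted p = 0.0315).

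TNNI1, which encodes the troponin I of slow skeletal muscle, had levels of 5.60, 6.36, 5.45 and 6.78 in LDPR pools 1 to 4, against 5.75, 5.12, 4.90 and 5.49 in SDPS pools 1 to 4. These ranges overlapped, while within each direct array LDPR was the higher (0.70 and 0.87) and the path lay at 0.63. The log2 fold change was 0.73 (SE 0.11, 1.66-fold). The related gene TNNT2, the troponin T of heart muscle, did not overlap between groups. It had 10.60 to 11.76 in LDPR pools and 10.11 to 10.27 in SDPS pools, with a log2 fold change of 0.43 (limma adjusted p = 0.375). RYR3, a calcium release channel of brain and muscle, was lower at -0.41, and at -0.21 with an offset of 50. Of 27 measured troponins and other contractile genes, 14 were above 0 and 13 below, and the median was 0.01. At an unadjusted p under 0.05, 2 were higher (3.79% over named genes) and 1 lower (3.98% over named genes).

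HSPA5 (BiP), the abundant chaperone of the endoplasmic reticulum, had levels of 10.62, 10.62, 10.73 and 9.97 in LDPR pools 1 to 4, against 10.24, 9.65, 10.31 and 9.84 in SDPS pools 1 to 4. LDPR pools 1 to 3 lay above every SDPS pool, and LDPR pool 4 lay among them. The direct arrays gave 0.31 and 0.78 and the path 0.53. HSP90B1, its partner of the same compartment, gave 0.23, 0.67 and 0.70 in the same order. Its levels ran from 9.42 to 10.47 in LDPR and from 8.85 to 11.75 in SDPS, where pool 2 was bright, as was LDPS pool 2 on the same array (12.20).

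Other genes of the higher 12 have roles in signalling and the nucleus. PHF20L1, a reader of methylated lysine, had 0.18 on the array of LDPR pool 1, a larger value on that of LDPR pool 2 and the path at 0.37. RSPO3, which strengthens Wnt signals, had 0.53, 0.61 and 0.44 in the same order. ROCK2, a kinase that acts on the actin cytoskeleton, had 3 tested probes: the brightest gave 0.53, the others 0.04 and 0.21. TGFBI, a matrix protein induced by TGF-beta, was above the empty spots in 3 LDPR and 3 SDPS pools. The mismatch repair gene MSH6 was at 0.47 with all arrays and 0.26 without the array of LDPR pool 2, and TGFBI was at 0.53 and 0.35. An offset of 50 on both channels draws dim probes towards 0, and TNNI1 was then at 0.38, RSPO3 and MSH6 at 0.28, TNFRSF18 at 0.26 and TGFBI at 0.24.

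The 12 lowest were UTS2 (-0.80), CRSP3 (-0.64), GLT8D3 (-0.61), CASKIN2 (-0.55), GATM (-0.52), UBXD8 (-0.51), PMP22 (-0.50), KCTD9 (-0.49), NOX4 (-0.49), DCTD (-0.48), EPHB2 (-0.45) and INSIG2 (-0.43), with SEs from 0.10 to 0.24. UTS2, the precursor of the vasoactive peptide urotensin 2, had levels of 8.58, 9.59, 7.61 and 9.63 in LDPR pools 1 to 4, against 10.26, 9.67, 9.45 and 11.09 in SDPS pools 1 to 4. LDPR pools 1 and 3 lay below every SDPS pool, and the others overlapped them. The direct arrays gave -0.86 and -1.50 but the path -0.03. Its estimate was -0.41 without the array of LDPR pool 2, and -0.42 with the authors' value table.

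PMP22, a membrane protein of myelin and other cells, had levels of 7.82, 7.93, 7.43 and 8.09 in LDPR pools 1 to 4, against 8.29, 8.47, 8.35 and 8.55 in SDPS pools 1 to 4. All LDPR pools lay below all SDPS pools. It averaged 7.82 ± 0.28 in LDPR and 8.42 ± 0.11 in SDPS (SD, n = 4 each), with direct arrays at -0.53 and -0.62 and the path at -0.34. METTL8 and PMP22 were the 2 of these 24 genes whose pool levels did not overlap, where the share over named genes was 0.949% (47 of 4955) and over all probes 0.979% (164 of 16748). The same values chose these genes, so nothing is read from that count.

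CRSP3, a subunit of the Mediator complex that links transcription factors to RNA polymerase, had levels of 5.79, 5.39, 6.27 and 6.13 in LDPR pools 1 to 4, against 6.79, 6.36, 6.62 and 6.16 in SDPS pools 1 to 4. LDPR pool 3 alone reached above the lowest SDPS pool. The estimate was -0.64 (SE 0.12, 0.640-fold), with direct arrays at -0.84 and -0.76 and the path at -0.33. Of the 14 measured Mediator and nuclear receptor coregulator genes, 9 were above 0, and CRSP3 was the only one at an unadjusted p under 0.05. The glycosyltransferase gene GLT8D3 had direct arrays at -0.92 and -0.47 and the path at -0.45. Its levels of 5.52 to 6.78 in LDPR and 5.99 to 7.05 in SDPS overlapped.

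Among the other genes of the lower 12, GATM, the first enzyme of creatine synthesis, had direct arrays at -0.67 and -0.61. NOX4, an oxidase that makes hydrogen peroxide, had direct arrays at -0.23 and -0.93. The dCMP deaminase gene DCTD had -0.20 and -0.94, and EPHB2, a receptor for ephrins, -0.02 and -0.89. CRSP3, GLT8D3, GATM, UBXD8, KCTD9, EPHB2 and INSIG2 were each above the empty spots in 3 of 4 LDPR pools and all 4 SDPS pools. The empty-spot level was highest in LDPR pool 2, at 62.8 against 20.4 to 51.1 in the other channels. These counts are therefore not read as a difference between groups.

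Of these 24 genes, 19 had an unadjusted p under 0.05 without the array of LDPR pool 2. Over named genes 1.91% were higher and 2.56% lower at that p in the same fit. The arrays kept in it had also served to choose the 24 genes. Most were thus bound to pass again, and nothing is read from that count. Those that missed that p were UTS2, MSH6, NOX4 (-0.33), DCTD (-0.21) and EPHB2 (-0.29), and UBXD8 was at -0.33. With an offset of 50, CRSP3 was at -0.36, GLT8D3 at -0.34, CASKIN2 at -0.33, UBXD8 at -0.31, GATM at -0.28, EPHB2 at -0.27, KCTD9 at -0.25 and INSIG2 at -0.24. Print-tip loess gave PHF20L1 at 0.35, RSPO3 and GATM at 0.33 and -0.33, UBXD8 at -0.28 and EPHB2 at -0.19.

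**Figure D1:**
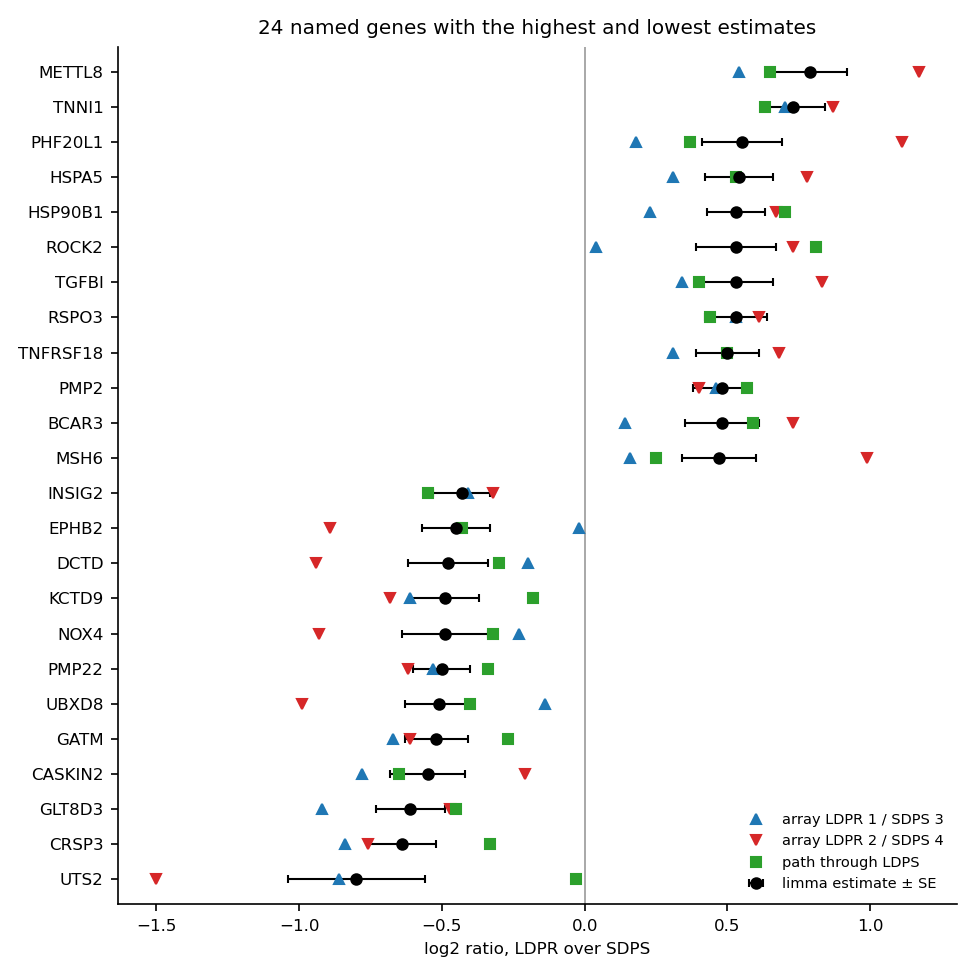
Log2 ratios, LDPR over SDPS (x axis), of the 12 highest and 12 lowest named genes chosen by the rule (rows, highest on top). Black points are limma estimates with SE bars, triangles the direct arrays (pointing up for LDPR pool 1 over SDPS pool 3, down for LDPR pool 2 over SDPS pool 4) and squares the path through LDPS. The path of UTS2 lies at -0.03 beside an estimate of -0.80, and METTL8 and TNNI1 have all of their values at 0.54 or above.

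A fit that treats the channels separately, and so also uses differences between arrays, called 50 of 16748 probes at an adjusted p of 0.05 (0.299%), 18 higher (0.107%) and 32 lower (0.191%) in LDPR. Its calls are given as a second reading. In simulated data this fit called unchanged probes too often, and the fit on ratios did not. Those data drew their ratios from the fit on ratios and kept the measured mean intensity of each spot. The separate-channel fit also reads that mean, so the simulation cannot tell which fit is the better calibrated. Among 4955 named genes it called 11 (0.222%), of which 8 were higher (0.161%): METTL8 (adjusted p = 0.0106), TNNI1 (adjusted p = 0.0185), RSPO3 (adjusted p = 0.0222), TNFRSF18 (adjusted p = 0.0358), ANXA7 (adjusted p = 0.0434), and HSPA5, PHF20L1 and BIN2 (adjusted p = 0.0483 each). It called 3 lower (0.0605%): CRSP3 and PMP22 (adjusted p = 0.0222 each) and GLT8D3 (adjusted p = 0.046). With the replicate number as a block in the separate-channel fit none of these 11 passed, METTL8 and ANXA7 having an adjusted p of 0.0675 each. The fit on ratios and the separate-channel fit use the same arrays, so neither checks the other.

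ANXA7, a calcium-dependent membrane-binding protein, was among these without being one of the 12 highest. It had 9.31, 9.04, 9.54 and 9.50 in LDPR pools 1 to 4, against 8.94, 8.75, 8.90 and 8.78 in SDPS pools 1 to 4. All LDPR pools lay above all SDPS pools, and the direct arrays gave 0.41 and 0.26 with the path at 0.52. BIN2, a membrane-shaping protein of white blood cells, was at 0.41 (SE 0.10), from 0.33 and 0.50 on the direct arrays. TNFRSF18, a TNF receptor family member of T cells, had direct arrays at 0.31 and 0.68. For GLUL, the glutamine synthetase of astrocytes, this fit called the dimmer of its 2 probes, at -0.54 in the fit on ratios, while the brighter lay at -0.31, and at -0.11 without the array of LDPR pool 2.

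**Figure D2:**
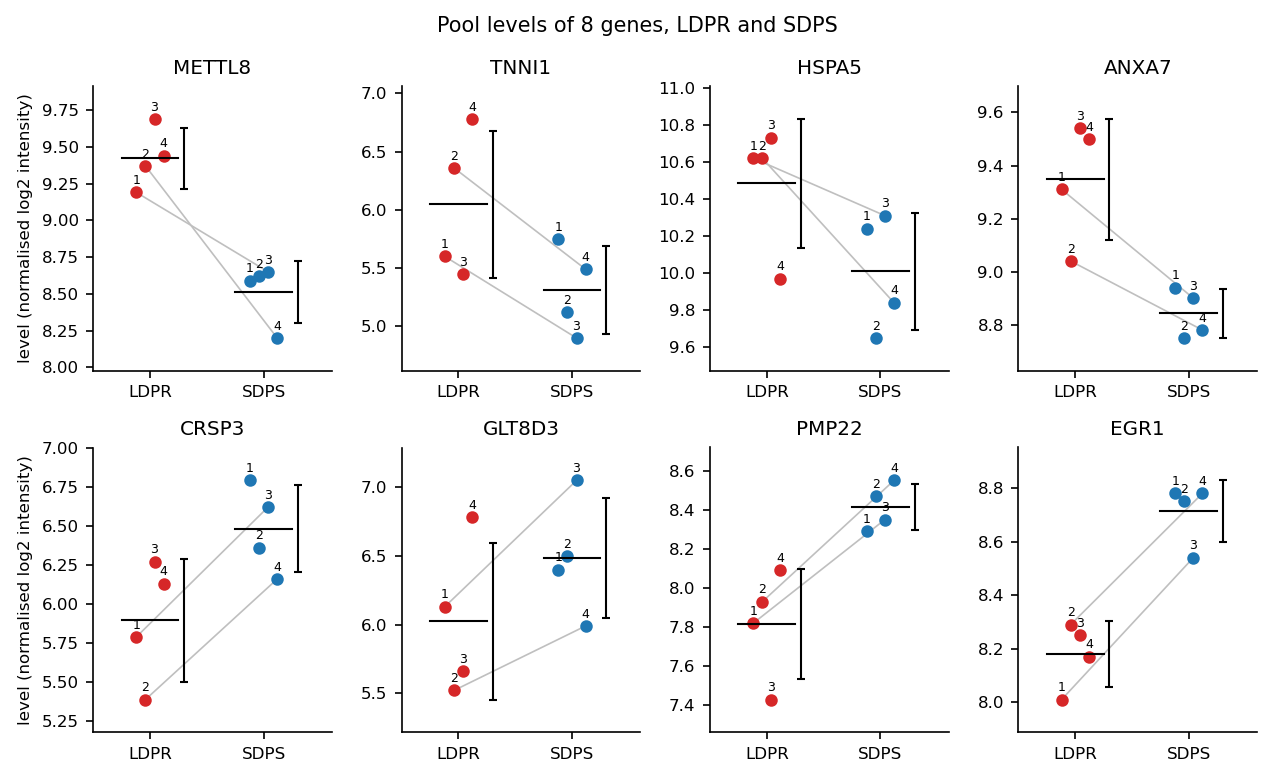
Normalised log2 intensity (y axis, a scale of its own in each panel) of 8 genes in the 4 LDPR pools (left) and the 4 SDPS pools (right), with pool numbers beside the points, black lines at the mean and bars of 1 SD. Grey lines join pools that shared an array. METTL8, ANXA7, PMP22 and EGR1 show no overlap between groups, while TNNI1 overlaps but is higher at the LDPR end of both grey lines.

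Immediate early genes, which neurons and other cells switch on within minutes of a stimulus, lay lower in LDPR. Of 18 measured, 16 were below 0 (background 48.9% of named genes) and 5 of these had an unadjusted p under 0.05 (background 3.98%): BTG2 (-0.57), CTGF (-0.38), EGR1 (-0.37), CYR61 (-0.28) and DUSP1 (-0.26). None was higher at that p, and the list median was -0.15, against 0.00 over named genes. The medians were -0.01 on the array of LDPR pool 1 and -0.47 on that of LDPR pool 2, and -0.12 on the path. Without the array of LDPR pool 2 the list median was -0.04, with 13 of 18 below 0, and BTG2 was the 1 member at an unadjusted p under 0.05.

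EGR1, a transcription factor gene used as a sign of neuronal activity, had levels of 8.01, 8.29, 8.25 and 8.17 in LDPR pools 1 to 4, against 8.78, 8.75, 8.54 and 8.78 in SDPS pools 1 to 4. All LDPR pools lay below all SDPS pools. The log2 fold change was -0.37 (SE 0.12, limma adjusted p = 0.436), with direct arrays at -0.53 and -0.49 and the path at -0.09. BTG2, which restrains cell division, was measured in 3 LDPR pools, from 4.65 to 5.42, against 5.87, 5.93, 5.48 and 5.51 in SDPS pools 1 to 4. These did not overlap either, but BTG2 was above the empty spots in 2 LDPR pools, and 1 array was missing from its fit. EGR1 was at -0.22, CTGF at -0.19 and CYR61 at -0.09 without the array of LDPR pool 2. BTG2 was at -0.35 without that of LDPR pool 1, and at -0.24 with an offset of 50. CTGF was at -0.62 without the array of LDPR pool 1.

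Cytosolic and mitochondrial heat shock proteins, which fold and refold proteins, lay slightly higher in LDPR. Of 44 measured, 34 were above 0 (background 51.1%), and 5 of them had an unadjusted p under 0.05 (background 3.79%): DNAJA1 (0.37), HSP70 (0.33), HSPA4 (0.32), DNAJA2 (0.31) and HSPA4L (0.26). None was lower at that p. The median was 0.10, with 0.04 over the direct arrays and 0.16 on the path, so it was the larger on the arrays that held neither LDPR pool 1 nor LDPR pool 2. DNAJA1, a co-chaperone of HSP70, had direct arrays at 0.18 and 0.49 and the path at 0.45. HSP70 itself had -0.14 and 0.96, and was at 0.18 without the array of LDPR pool 2, where the list median was 0.12 with 36 of 44 above 0 and 2 members, DNAJA1 and DNAJA2, had an unadjusted p under 0.05. DNAJA2 was at 0.17 on direct arrays alone, and HSPA4 at 0.21 with an offset of 50. The 7 measured subunits of the CCT chaperonin, which folds actin and tubulin, lay between 0.04 and 0.19.

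The chaperones of the endoplasmic reticulum were mixed. Of 31 measured genes of this compartment, 19 were above 0 and the median was 0.01. At an unadjusted p under 0.05 (background 3.79% higher and 3.98% lower) 3 were higher, HSPA5, HSP90B1 and UGCGL1 (0.41). The 1 lower was DERL3 (-0.39), which helps to remove misfolded proteins. UGCGL1, which checks the folding of glycoproteins, had direct arrays at 0.07 and 0.25 and the path at 0.91. It was at 0.75 without the array of LDPR pool 1 and at 0.22 without that of LDPR pool 3. DERL3 gave -0.34 and -0.31 on the direct arrays and -0.51 on the path. XBP1 (0.13) and ATF4 (-0.01), which are among the transcription factors of the unfolded protein response, were near 0.

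**Figure D3:**
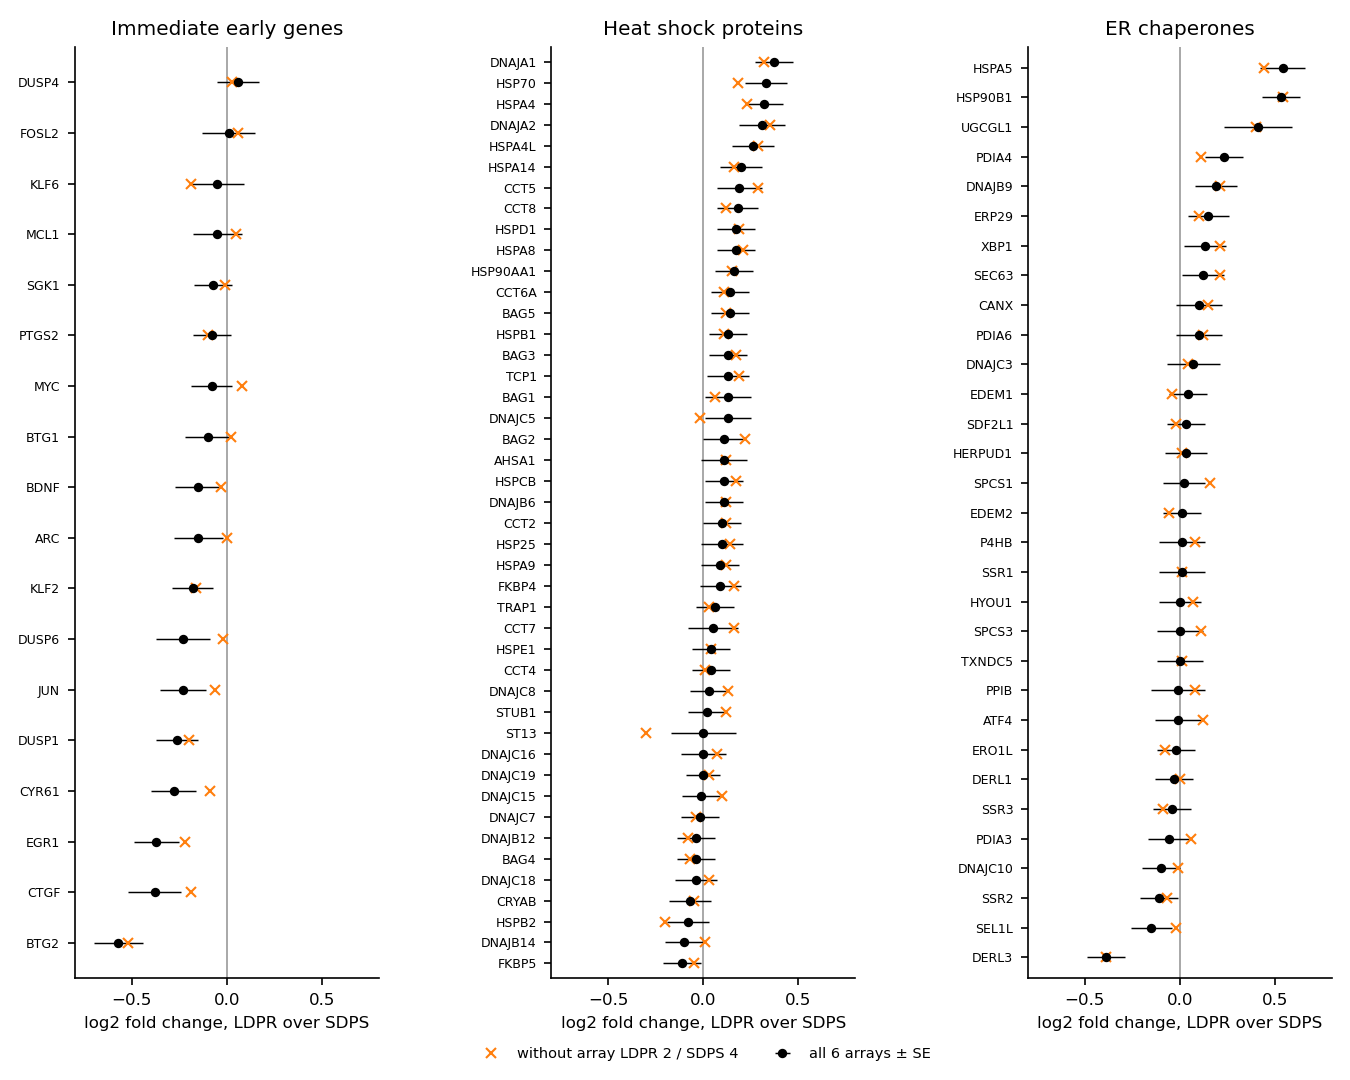
Log2 fold changes, LDPR over SDPS (x axis), of the measured immediate early genes (18), cytosolic and mitochondrial heat shock proteins (44) and endoplasmic reticulum chaperones (31), 1 gene a row. Black points with SE bars are limma estimates over 6 arrays and crosses those without the array of LDPR pool 2. Crosses of the immediate early genes lie nearer 0 (median -0.04 against -0.15), and those of the heat shock genes stay mostly above 0 (median 0.12).

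Among genes of the thyroid route by which birds read long days, the largest values were those of TRH and TTR. TRH, the peptide that drives the thyroid axis, was at 0.45 (SE 0.13), from 0.47 and 0.71 on the direct arrays and the path at 0.17. It had 7.06, 7.04, 7.01 and 6.78 in LDPR pools 1 to 4, against 7.14, 7.10, 6.58 and 6.33 in SDPS pools 1 to 4, so the groups overlapped. TRH was at 0.29 without the array of LDPR pool 2 and at 0.30 with an offset of 50. DIO2, the enzyme that makes active thyroid hormone under long days, was at -0.22 (SE 0.12), with the path at 0.07, and at -0.04 without the array of LDPR pool 2. Its levels were 7.79, 7.71, 7.10 and 7.93 in LDPR pools 1 to 4, against 8.04, 7.79, 8.26 and 7.95 in SDPS pools 1 to 4. The thyroid receptor genes THRA (-0.03) and THRB (0.10) lay near 0, as did TSHR, with direct arrays at 0.15 and -0.19. Of 11 measured genes 2 were higher at an unadjusted p under 0.05 (background 3.79%) and none lower (background 3.98%), with a median of 0.05. Without the array of LDPR pool 2 none was higher at that p (background 1.91%) and 1 was lower (background 2.56%). The lower one was EYA3, at -0.40 in that fit and -0.04 with all arrays.

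TTR, the carrier of thyroid hormone that the choroid plexus secretes, had the widest spread, with 9.68, 8.21, 9.40 and 5.88 in LDPR pools 1 to 4, against 9.13, 8.39, 6.80 and 6.57 in SDPS pools 1 to 4. High and low pools occurred in both groups. The log2 fold change was 1.57 (SE 0.60, limma adjusted p = 0.489), with direct arrays at 2.88 and 1.64 and the path at 0.20. It was 0.93 without the array of LDPR pool 2. TTR and EXOC6 were the 2 named genes beyond 1. EXOC6, a part of the exocyst that docks secretory vesicles, was chosen after its values were seen. Its estimate was 1.5 (SE 0.54), from -0.06 and 2.96 on the direct arrays, with levels of 9.65 to 11.14 in LDPR and 8.19 to 10.20 in SDPS. With 1 array left out it ran from 0.73, without the array of LDPR pool 2, to 2.35, without that of LDPR pool 1.

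Of the circadian clock, CRY1 and PER2, the repressors of the feedback loop, were the higher ones. CRY1 had 8.49, 8.13, 7.86 and 9.21 in LDPR pools 1 to 4, against 8.11, 7.31, 8.26 and 7.47 in SDPS pools 1 to 4, and an estimate of 0.41 (SE 0.11) from 0.22 and 0.66 on the direct arrays. PER2 had 6.73, 6.64, 7.17 and 6.64 in LDPR pools 1 to 4, against 6.11, 6.26, 6.57 and 6.56 in SDPS pools 1 to 4. The PER2 pools did not overlap, while those of CRY1 did. PER2 was at 0.32 (SE 0.13), from 0.16 and 0.08 on the direct arrays and the path at 0.72. Its direct arrays alone gave 0.12, the fit without the array of LDPR pool 1 gave 0.51 and an offset of 50 gave 0.21. CRY1 was at 0.21 with print-tip loess. Without the array of LDPR pool 2 CRY1 was at 0.43 and PER2 at 0.40. The activators CLOCK (-0.13) and ARNTL (-0.04) lay near 0. TIPIN, a partner of TIMELESS in DNA replication, was at -0.38, and at -0.10 without the array of LDPR pool 2. Of 13 clock genes 2 were higher (background 3.79%) and 1 lower (background 3.98%) at an unadjusted p under 0.05, with a median of -0.01. Without the array of LDPR pool 2, 2 were higher (background 1.91%) and none lower (background 2.56%). The arrays kept are part of the full fit, so that count is no separate check.

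Opsins and monoamine enzymes differed little. OPN4, the melanopsin of this nucleus, had 11.86, 11.81, 11.97 and 11.60 in LDPR pools 1 to 4, against 11.80, 11.82, 11.65 and 11.98 in SDPS pools 1 to 4, and its log2 fold change was 0.07 (SE 0.10). The mean was 11.81 in both groups. OPN1LW, the red cone opsin, was at -0.52 (SE 0.12), but was above the empty spots in 2 LDPR pools against 4 SDPS pools, and was at -0.20 with an offset of 50. It was the 1 photoreception gene of 12 at an unadjusted p under 0.05, and the median of these was 0.01. TH was at 0.23 (SE 0.10), from 0.20 and 0.34 on the direct arrays, with levels of 6.32, 6.27, 6.37 and 6.39 in LDPR pools 1 to 4, against 6.71, 6.65, 6.12 and 5.93 in SDPS pools 1 to 4. SDPS pools lay on both sides of all LDPR pools. TH was at 0.15 with an offset of 50. DBH, which turns dopamine into noradrenaline, was at -0.26 (-0.14 without the array of LDPR pool 2). ASMT, the last enzyme of melatonin synthesis, was at -0.11 (SE 0.13), from -0.46 and 0.32 on the direct arrays. Of the 10 measured monoamine and melatonin genes 2 were higher (background 3.79%) and 1 lower (background 3.98%) at an unadjusted p under 0.05 (median 0.05). The 3 dopamine and melatonin receptor genes all lay below 0 with none at that p (median -0.17).

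Of 37 neuropeptide, hormone and receptor genes of reproduction, 18 were above 0 and 19 below, with a median of -0.04. At an unadjusted p under 0.05 there were 2 higher (background 3.79%) and 4 lower (background 3.98%). Among the 4 lower were UTS2, ESR2 (-0.37) and INHBA (-0.29). ESR2, the oestrogen receptor beta, had 6.46 to 7.06 in LDPR pools, against 7.40, 6.76, 7.23 and 7.41 in SDPS pools 1 to 4. Only SDPS pool 2 lay among the LDPR pools. ESR2 was at -0.24 without the array of LDPR pool 1. INHBA, a chain of activin and inhibin, was at 0.01 with print-tip loess. The 2 higher were the neuropeptide neurotensin, NTS (0.28), and the secretory granule protein CHGB (0.26). CHGB had 0.00 and 0.41 on the direct arrays. Without the array of LDPR pool 2, NTS was at 0.26 and CHGB at 0.24, neither at that p. In that fit none of the 37 was higher (background 1.91%) and 3 were lower (background 2.56%). Of the 6 members at that p with all arrays, 1 remained.

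None of the following hormone and peptide genes had an unadjusted p under 0.05. GAL, the neuropeptide galanin, had 10.12, 10.29, 10.03 and 10.24 in LDPR pools 1 to 4, against 10.19, 10.56, 10.03 and 10.13 in SDPS pools 1 to 4. The groups overlapped throughout, and the log2 fold change was 0.17 (SE 0.11). Both lay above the LDPS pools, which ran from 8.52 to 9.43. NPVF, which encodes gonadotropin-inhibitory hormone, was at 0.35 (SE 0.23), and its direct arrays had opposite signs (-0.75 and 1.18). With 1 array left out NPVF ran from 0.04, without the array of LDPR pool 2, to 0.83. VIP, which releases prolactin, was at -0.18 (SE 0.15), prolactin itself (PRL) at -0.19 (SE 0.19), its receptor PRLR at 0.01 (SE 0.10), AVP at 0.05 (SE 0.13) and POMC at -0.05 (SE 0.11). VIP and PRL were both at 0.08 without the array of LDPR pool 2, where VIP had -0.77 and PRL -0.74.

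**Figure D4:**
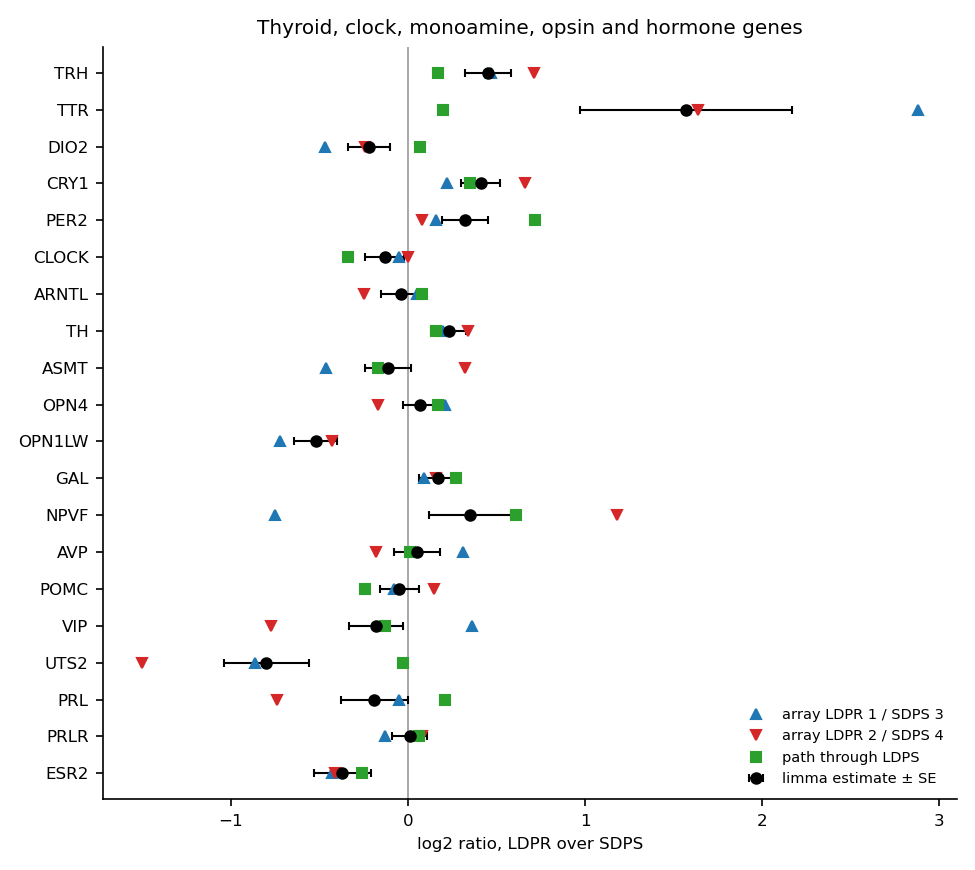
Log2 ratios, LDPR over SDPS (x axis), of 20 thyroid, clock, monoamine, opsin and hormone genes (rows), with the limma estimate and SE in black, the direct arrays as triangles and the path through LDPS as squares; OPN1LW has no path value. TRH, TTR, CRY1, PER2, TH and GAL have all values above 0. ARNTL, ASMT, OPN4, NPVF, AVP, POMC, VIP and PRLR have direct arrays on both sides of 0.

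Steroid-making and sterol genes lay mostly below 0 by small amounts. CYP19A1, the aromatase that makes oestrogen, and CYP7B1, which hydroxylates neurosteroids, were both at -0.33, with direct arrays at -0.34 and -0.48 for CYP19A1 and -0.35 and -0.51 for CYP7B1. Without the array of LDPR pool 2 they were at -0.17 and -0.13. An offset of 50 gave -0.20 and -0.21, and CYP19A1 was at -0.18 with print-tip loess. They were the 2 of 8 neurosteroid genes at an unadjusted p under 0.05, both lower (background 3.98%, list median -0.04). Of 21 cholesterol genes, 17 were below 0 (background 48.9%), with INSIG2 and INSIG1 (-0.25) lower and the lipoprotein receptor VLDLR (0.29) higher at that p and a median of -0.05. INSIG1 and INSIG2 hold back sterol synthesis when cholesterol is plentiful. INSIG2 had direct arrays at -0.41 and -0.32 and the path at -0.55, INSIG1 was at -0.14 without the array of LDPR pool 2, and VLDLR at 0.17 with print-tip loess. Of 20 retinoid genes TTR was higher and RDH12 (-0.25), a retinal reductase, lower at that p (median 0.01).

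Chromatin genes included 4 higher and 1 lower of 40 at an unadjusted p under 0.05 (background 3.79% and 3.98%), with a median of 0.05. PHF20L1 led, followed by HDAC2 (0.46), MYST3 (0.34) and CHD7 (0.28). HDAC2, a histone deacetylase, had 10.68 to 11.58 in LDPR pools and 9.84 to 10.60 in SDPS pools, which did not overlap. Its direct arrays gave 0.10 and 0.73 and the path 0.55 (limma adjusted p = 0.377). MYST3 is a histone acetyltransferase and CHD7 a chromatin remodeller, and CHD7 was at 0.18 with an offset of 50. In the methyltransferase-like family METTL8 was higher and METTL4 (-0.34) lower of 6 measured (median 0.01). METTL4 was at -0.07 without the array of LDPR pool 2 and -0.03 with the authors' value table.

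Neuronal signalling genes were mixed. Of 34 voltage-gated channel genes 5 were lower (background 3.98%) and none higher at an unadjusted p under 0.05 (median -0.04), among them the potassium channels KCNC1 (-0.38), KCNH6 (-0.33), KCNA5 (-0.32) and KCNG4 (-0.28). Without the array of LDPR pool 2 KCNC1 was at -0.22, KCNH6 at -0.12, KCNA5 at -0.23 and KCNG4 at -0.18, and none of the 5 had an unadjusted p under 0.05. Of 23 synaptic vesicle genes SCAMP1 (0.36) and STX2 (0.29) were higher and RIMS2 (-0.31) and STXBP5 (-0.31) lower at that p (median 0.01). SCAMP1 was at 0.19 with print-tip loess, and KCNA5 at -0.16 with scaling between arrays. None of 19 GABA and glutamate genes was (median 0.01).

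Protein turnover, trafficking and sugar transfer lists had medians near 0, with a few members apart. UBE2E1, a ubiquitin-conjugating enzyme, was at -0.75 (SE 0.21) and was the 1 of 12 such genes at an unadjusted p under 0.05 (median 0.03). Its direct arrays gave -0.72 and -1.58 and the path 0.05. UBE2E1 levels ran from 9.71 to 10.95 in LDPR and from 10.47 to 11.59 in SDPS, and its estimate without the array of LDPR pool 2 was -0.41. Of 26 proteasome genes PSMA2 (0.32) was higher and PSMD3 (-0.29) lower (median -0.01), PSMD3 being at -0.17 without the array of LDPR pool 2. Of 28 sorting nexin and retrieval genes 4 were higher (background 3.79%), among them SNX2 (0.34), SNX16 (0.28) and VPS13C (0.24), and SNX30 (-0.57) was lower (median 0.00). Without the array of LDPR pool 2 none of this list was higher at that p. SNX30 was above the empty spots in 1 LDPR pool and was at -0.24 with an offset of 50. Of 40 glycosyltransferase genes 1 was higher, GALNT17 (0.29), and 2 lower (median -0.02). Without the array of LDPR pool 2, 1 was higher (background 1.91%) and 4 lower (background 2.56%) at that p. ST3GAL3, a sialyltransferase, was at -0.90, with -2.49 on the array of LDPR pool 2 and -0.15 without it, and its second probe was at -0.14. Print-tip loess gave SNX2 at 0.14, VPS13C at 0.11 and GALNT17 at 0.06.

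Genes of translation, energy and splicing had list medians close to that of all named genes. Of 41 cytosolic ribosomal protein genes 27 were below 0 (background 48.9%), with a median of -0.08 over the direct arrays and -0.01 on the path. At an unadjusted p under 0.05 there were 1 higher, RPL7 (0.27), and 1 lower, RPS14 (-0.37), of 41 cytosolic ribosomal protein genes (median -0.03), and none of 37 mitochondrial ribosomal protein genes (median -0.02) or of 32 respiratory chain and ATP synthase genes (median 0.00). Of 32 splicing genes SF3B3 (0.43) and HNRPU (0.29) were higher and SFRS14 (-0.27) lower (median -0.01). SFRS14 was at -0.16 without the array of LDPR pool 2, print-tip loess gave RPL7 at 0.14 and HNRPU at 0.15, and an offset of 50 gave RPS14 at -0.24.

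**Figure D5:**
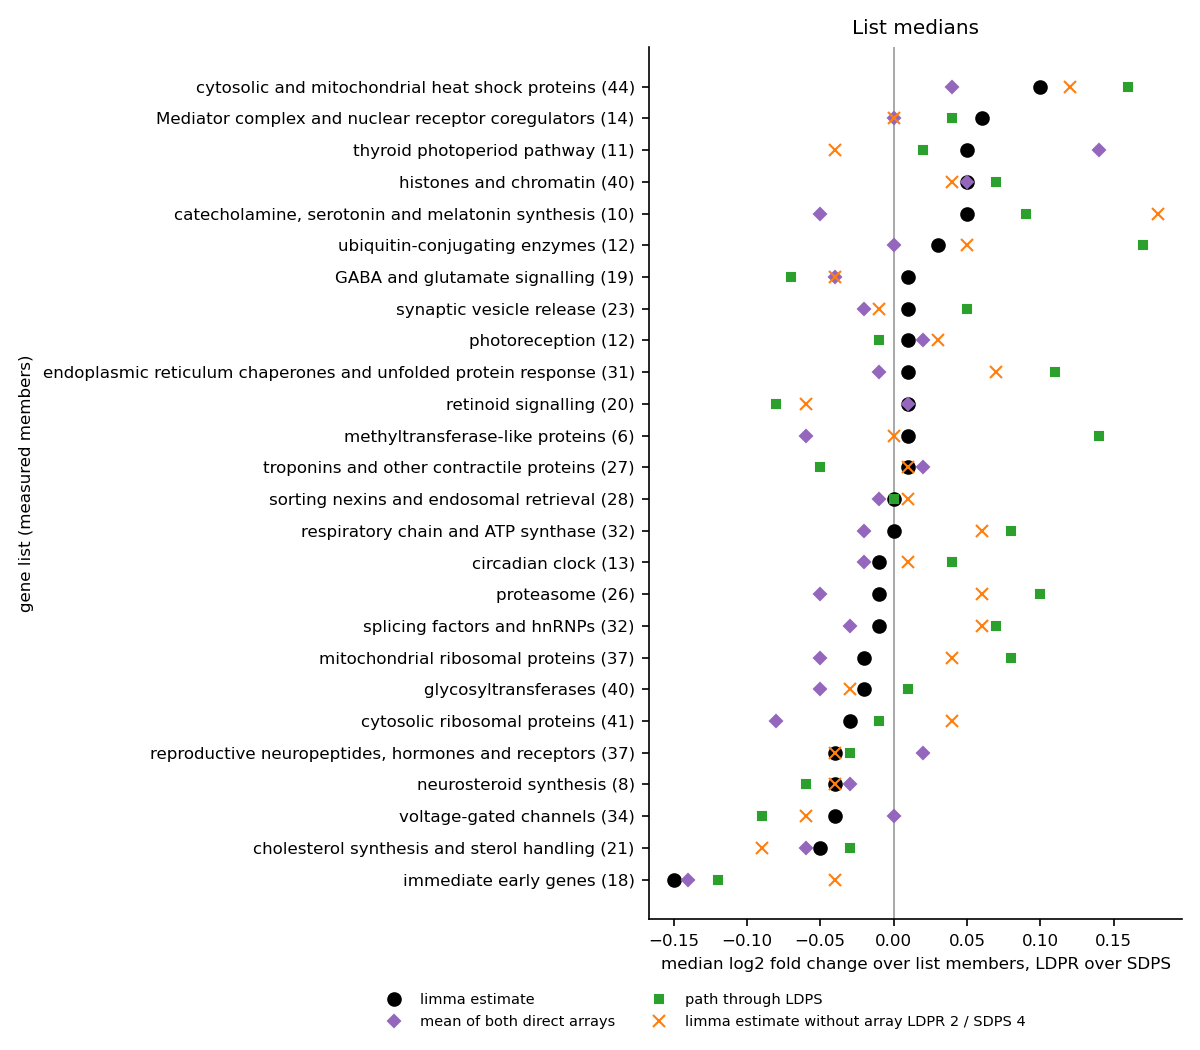
Median log2 fold change, LDPR over SDPS (x axis), over the measured members of each gene list of at least 5 (rows, number of members in brackets). Circles are limma estimates, diamonds the mean of both direct arrays, squares the path through LDPS and crosses limma estimates without the array of LDPR pool 2. The heat shock list is the highest at 0.10 and the immediate early list the lowest at -0.15, with its cross at -0.04.

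Markers of the cell types the tissue could hold gave the following, as limma list medians. Neurons had 6 of 12 above 0 (median 0.00), myelin and oligodendrocytes 2 of 6 (median -0.01), astrocytes and tanycytes 6 of 13 (median -0.01), microglia and immune cells 7 of 16 (median -0.01), neighbouring hypothalamic nuclei 7 of 11 (median 0.05) and choroid plexus and ependyma 4 of 5 (median 0.03). Endothelium and mural cells had 2 of 9 above 0 (median -0.10), pituitary 2 of 9 (median -0.10) and red blood cells 1 of 3 (median -0.09). At an unadjusted p under 0.05 there were MAP2 (0.35) of neurons, NES (0.35) of tanycytes and TTR on the higher side, and LHX9 (-0.30) of neighbouring nuclei on the lower. The second probe of NES was at -0.14, NES was at 0.54 without the array of LDPR pool 1 and MAP2 was at 0.16 with print-tip loess. The median level of the endothelial markers ran from 7.30 to 7.97 in LDPR pools and from 7.62 to 8.30 in SDPS pools. In these pools it was the level of 1 gene, CDH5. That of pituitary markers ran from 8.56 to 8.95 in LDPR pools and from 7.95 to 8.76 in SDPS pools. Such a median follows the probe of middle brightness in a pool. The pituitary ranges thus reached higher in LDPR, while 7 of 9 pituitary fold changes lay below 0. The pituitary hormone gene PRL was above the empty spots in 3 LDPR and 4 SDPS pools. The median level of red blood cell markers, which was that of HBG2 in these pools, ran from 10.00 to 10.85 in LDPR and from 10.33 to 11.01 in SDPS. HBA1, an alpha globin, had 11.93, 11.49, 11.27 and 11.36 in LDPR pools 1 to 4, against 12.04, 12.22, 12.08 and 12.25 in SDPS pools 1 to 4. All LDPR pools lay below all SDPS pools, with a log2 fold change of -0.33 (SE 0.15), the path at -0.06 and a value of -0.14 without the array of LDPR pool 2. HBG2 had direct arrays at 0.05 and -0.33. The part of blood, vessels or dissection in the values above was not tested.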

How the data were processed

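Total RNA of premammillary nucleus pools was copied into cDNA and labelled indirectly, per the labels' protocols. The authors' deposited intensity is an amplitude for each spot in each channel from BlueFuse 3.6 (build 7145), read at 532 nm (Alexa Fluor 555) and 635 nm (Alexa Fluor 647), per the file headers. Files of samples that shared an array held identical values (6 of 6 pairs), so each array was read once. The header date was shared by 5 arrays, and the array of LDPR pool 3 and LDPS pool 3 was the 1 with another, so leaving it out leaves a single date. Spots with a deposited confidence score under 0.1 were treated as missing, a threshold set with the files in view. The authors' deposited table of log2 values was an alternative. Its column medians ran from 7.43 to 7.58 and 12 of 12 columns ranked probes most like the sample's own channel, which gives its direction, while its normalisation and centring remain unknown.

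Ratios on the log2 scale were loess-normalised within arrays (span 0.3, 4 iterations) and fitted with limma 3.58.1 in R 4.3.3 over 6 arrays with group and dye terms. Probes on at least 5 arrays were tested (18012, of which 5678 with a symbol, 5195 genes), two-sided, and every adjusted p is a Benjamini-Hochberg value over all probes of that fit. Residual degrees of freedom were 2 to 3, with 6.64 from the prior, and the median SE was 0.11. The number of arrays limits the precision. Turkey RNA met chicken probes whose symbols can be old, so levels of different probes were not compared. The empty-spot level is the percentile 95 of the empty spots in a channel. Pool levels are normalised log2 intensities and carry the brightness of their array, which ratios do not. A gene with several probes was read from its brightest. Median amplitudes ran from 92.65 to 276.5 per channel.

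Same-numbered LDPR and SDPS pools had deviations from their group means that correlated at -0.368, -0.434, -0.440 and -0.181. Each such pair carried opposite dyes and the dye effect was not removed, so these values cannot show whether replicate numbers pair the pools. Both fits were run on simulated ratios drawn from the fit on ratios, with measured spot means kept, which cannot rank them. The named genes are those called by the separate-channel fit, the 12 highest and 12 lowest described in the text, up to 4 members of each list with the lowest p, of which those at an unadjusted p under 0.05 are given, and a fixed set of 32, of which 27 were tested. The members, lists and this rule were chosen with earlier results of these data known. List counts carry no test, and some members counted are not reported here by name. Alternatives covered offset, normalisation, dye term, arrays used, channels, spot filters and arrays left out in turn, and a confidence score threshold of 0.3 was chosen after seeing the data. No sequence is printed, since neither the files nor the reference table hold probe sequences.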

Additional observations from a re-analysis of the deposited data

Results flagged for a closer look

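Single pools stood apart from the other 3 of their group by Dixon's test in 6 of 108 group sets over 54 genes, and chance gives about 1 in 20. EGR1 was 8.54 in SDPS pool 3, against 8.75 to 8.78 in the other SDPS pools, and stayed above every LDPR pool. HSP90B1 was 11.75 in SDPS pool 2, against 8.85 to 9.19 in the others. HSPA5 was 9.97 in LDPR pool 4, against 10.62 to 10.73. METTL8 was 8.20 in SDPS pool 4, which shared its array with LDPR pool 2, against 8.59 to 8.65. MSH6 was 6.25 in LDPR pool 3, against 6.47 to 6.49, and TGFBI 5.45 in LDPR pool 1, against 5.72 to 5.76. Outside the tested probes, 15 of the 18 control oligonucleotides lay above the empty-spot level in all 12 channels. The causes were not tested.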

How the results depend on the processing

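The ratio fit called 0 probes in all 6 arrays and in most alternatives. It called 1 with scaling between arrays and from 0 to 4 with 1 array left out, and the fit on separate channels called 50 probes. With the replicate number as a replicate block in that fit, 13 probes were called, of which 2 were among the 50, and UTS2 was at -0.48, TTR at 0.34, UBE2E1 at -0.21, TRH at 0.18, KCTD9 at -0.20 and UGCGL1 at 0.77. The count of 1686 at unadjusted p was 614 with no dye intercept and ran from 1023, when the array of LDPR pool 2 was dropped, to 2870, when LDPS pool 2 was dropped together with SDPS pool 2. The share of probes with direct arrays and path in the same direction, 56.1%, was 56.9% with an offset of 50 and with median centring, and 53.6% with scaling. It could not be given for direct arrays only, separate channels or fits with 1 array left out. With separate channels the calls were METTL8 (0.80), TNNI1 (0.74), PHF20L1 (0.57), HSPA5 (0.53), RSPO3 (0.52), TNFRSF18 (0.49), ANXA7 and BIN2 (0.41 each), PMP22 (-0.51), GLT8D3 (-0.59) and CRSP3 (-0.63). The following changed sign, among them INHBA, which had an unadjusted p under 0.05 with all arrays. AVP was at -0.01 with median centring. Print-tip loess put ASMT at 0.02, INHBA at 0.01 and PRL at 0.02. Scaling put HBG2 at 0.04 and PRLR at -0.04. With direct arrays only POMC was at 0.04 and PRLR at -0.02, and with separate channels PRLR was at -0.01. The replicate block put ARNTL at 0.07 and PRL at 0.06, and the confidence threshold of 0.3 put PRL at 0.08. With 1 array left out PRL and VIP each ran from -0.41 to 0.08, HBG2 from -0.20 to 0.04 and ASMT from -0.30 to 0.04. In the same fits ARNTL ran from -0.10 to 0.10, AVP from -0.06 to 0.15, POMC from -0.17 to 0.02 and PRLR from -0.04 to 0.09. METTL8 kept its sign in these fits, from 0.64 to 0.90. The median of endoplasmic reticulum chaperones was 0.07 with the replicate block and ran from 0.00 to 0.07 with 1 array left out. The causes were not tested.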
